A study of Mus musculus with 12 samples.

Results

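CD4+ T cells with the Smad4 knockout genotype were compared with wild-type cells 12 h after treatment. The treatment was IL-6, the cytokine interleukin 6, plus a blocker of the TGF-β receptor. All genes with a mean deposited log2 value of at least 3 over the 12 libraries of the series entered the comparison, which kept 12436 of 24538 genes. The 3 KO libraries at 12 h were set against the 3 WT libraries at 12 h, and 3 libraries of each genotype at 3 h entered the same fit. At an adjusted p under 0.05, 83 genes differed, 62 higher and 21 lower in KO. These are 0.667%, 0.499% and 0.169% of the genes tested. Among the rises were 9 of 24 known targets of TGF-β or SMAD proteins and 7 of 18 transcription factors of TH17 cells, the IL-17-producing helper T cells, and among the falls the integrin gene Itgb3 and the costimulatory genes Icosl and Cd226. The gene lists were chosen with earlier results of these data known, so their counts are descriptive.

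The WT and KO mice were on the C57BL/6 background, and the labels give all of them as female. KO cells carried a floxed Smad4 allele and a Cre recombinase driven by Cd4, which acts in developing thymocytes, so CD8 T cells of such mice are deleted as well. The CD4+ T cells were taken from spleen and peripheral lymph nodes, activated in culture, and collected 3 h or 12 h after treatment. Every group received IL-6 and the inhibitor, so no library shows the cells without them. The labels do not say whether the 3 libraries of a group came from separate animals, and p-values measure the spread between these libraries, part of which may be technical.

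SMAD4 is the common partner of the SMAD proteins that TGF-β, activin and BMP receptors phosphorylate, and SMAD complexes bind short CAGAC elements in DNA. SKI and the related SnoN, encoded by Skil, are corepressors that dock on SMAD complexes and hold target genes down until TGF-β signalling leads to their degradation. In CD4+ T cells, TGF-β together with IL-6 drives the TH17 fate, in which IL-6 acts through STAT3. The inhibitor blocks the receptor step of this pathway, so the comparison asks what the loss of SMAD4 does when the receptor is inhibited.

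Smad4 itself, on chromosome 18 at 73639009 to 73703780 (GRCm38, minus strand), was at 11.53, 11.49 and 11.52 in WT and at 11.50, 11.50 and 11.60 in KO at 12 h. The groups overlapped, with a difference of 0.02 ± 0.06 (SE, n = 3 per group; limma adjusted p = 1.00). A deletion of some exons can leave reads over the rest of the gene, which makes the whole-gene value no test of the genotype, and every direction given here rests on the labels. The 11 markers of CD4 T cells summed to 18.01 to 18.04 in WT and 18.01 to 18.16 in KO. At 12 h the first principal component of the 6 libraries held 33.4% of the variance and set the replicate 2 libraries of both genotypes apart from the others. The second held 23.4% and separated the genotypes.

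Several libraries stood apart. In replicate 2 of all 4 groups Xist was at 4.55 to 5.70 and the Y-linked Ddx3y at 12.34 to 12.69, against the female label, while the other 8 libraries had Xist at 15.08 to 16.27 and Ddx3y at 2.39 to 2.77. By these genes the cells of replicate 2 came from other animals than those of replicates 1 and 3. Without these libraries 22 genes were called, 19 higher and 3 lower. All 83 genes called with them kept their sign, which was fixed in advance because their groups did not overlap. WT replicate 1 at 12 h held Rn45s, the ribosomal RNA precursor, at 20.1 against 14.27 to 15.48 in the 11 other libraries, and Lars2 at 16.28 against 11.06 to 11.84. Without it 49 genes were called, 44 higher and 5 lower. With the replicate number, which was taken to pair the libraries, as a block, 114 genes were called, 78 higher and 36 lower, among them all 83.

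Promoter windows are shown for 5 genes called higher, the SMAD target genes that have one and Cish, a STAT target, to set their motifs beside their values. Each window is 300 bases long, lies across the annotated start of a gene and is taken from RefSeq on GRCm38.p6. Capitals mark CAGAC or its reverse complement in the first 4, and the STAT-type spaced palindrome TTCNNNGAA in the last. Ccr8 (chr9:120091883-120092182, plus strand) and Nt5e (chr9:88327359-88327658, plus strand) each hold 2 CAGAC matches. Id2 (chr12:25096043-25096342, minus strand) and Smad3 (chr9:63757945-63758244, minus strand) hold 0. Cish (chr9:107296409-107296708, plus strand) holds 2 STAT-type matches.
Ccr8: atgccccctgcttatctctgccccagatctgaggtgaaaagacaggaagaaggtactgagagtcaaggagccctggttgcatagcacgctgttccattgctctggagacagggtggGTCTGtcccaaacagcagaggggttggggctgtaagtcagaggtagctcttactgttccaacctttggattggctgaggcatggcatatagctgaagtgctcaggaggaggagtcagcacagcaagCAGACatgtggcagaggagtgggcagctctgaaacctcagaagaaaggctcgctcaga
Nt5e: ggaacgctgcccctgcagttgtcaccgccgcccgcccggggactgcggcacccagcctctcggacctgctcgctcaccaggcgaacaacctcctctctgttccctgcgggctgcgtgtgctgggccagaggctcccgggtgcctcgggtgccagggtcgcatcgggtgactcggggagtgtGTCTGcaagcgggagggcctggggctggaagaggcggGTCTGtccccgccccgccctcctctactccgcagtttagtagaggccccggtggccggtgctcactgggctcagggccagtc
Id2: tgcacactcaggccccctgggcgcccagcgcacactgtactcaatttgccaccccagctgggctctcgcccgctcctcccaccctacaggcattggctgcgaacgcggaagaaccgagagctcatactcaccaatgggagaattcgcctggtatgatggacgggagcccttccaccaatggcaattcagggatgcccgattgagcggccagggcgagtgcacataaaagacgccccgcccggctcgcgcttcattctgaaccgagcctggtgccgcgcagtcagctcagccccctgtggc
Smad3: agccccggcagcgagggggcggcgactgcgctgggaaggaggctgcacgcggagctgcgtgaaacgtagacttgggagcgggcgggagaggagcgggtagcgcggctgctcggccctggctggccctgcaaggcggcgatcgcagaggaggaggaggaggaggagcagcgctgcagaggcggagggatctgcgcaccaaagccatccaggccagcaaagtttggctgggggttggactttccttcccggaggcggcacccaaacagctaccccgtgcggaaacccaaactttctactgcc
Cish: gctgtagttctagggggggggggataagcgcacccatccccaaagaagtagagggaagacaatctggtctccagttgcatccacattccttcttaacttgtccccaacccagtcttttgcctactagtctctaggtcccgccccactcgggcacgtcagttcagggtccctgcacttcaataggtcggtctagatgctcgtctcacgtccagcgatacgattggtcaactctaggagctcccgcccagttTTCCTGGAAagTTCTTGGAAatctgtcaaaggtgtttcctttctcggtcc

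In Ccr8 the matches begin at positions -134 and -8 and in Nt5e at -69 and -32, where 0 is the annotated start. In Cish they begin at 0 and 11. A window was given for 39 of the 62 rises and 14 of the 21 falls. CAGAC, searched on both strands, was in 53.8% of the rises and 35.7% of the falls, against 47.7% of the tested genes with a window and 49.7% of all 27025 windows. TTCNNNGAA was in 4 of the 39 rises (10.3%) and 1 of the 14 falls (7.14%), against 6.98% of the tested genes. The AP-1 motif TGANTCA was in 0 of the 39 rises with a window and in 2 of the 14 falls (14.3%), against 4.75% of the tested genes. Counts this small set no contrast between rises and falls. The E box CANNTG was in 64.1% of the rises and 71.4% of the falls, against 63.3%. In Ccr8 an E box begins at -4, on the last base of the CAGAC match at -8. The matches describe letters in these windows and show no binding. No window was given for Skil, Pmepa1, Ldlrad4, Klf10, Bhlhe40 and Maf.

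**Figure D1:**
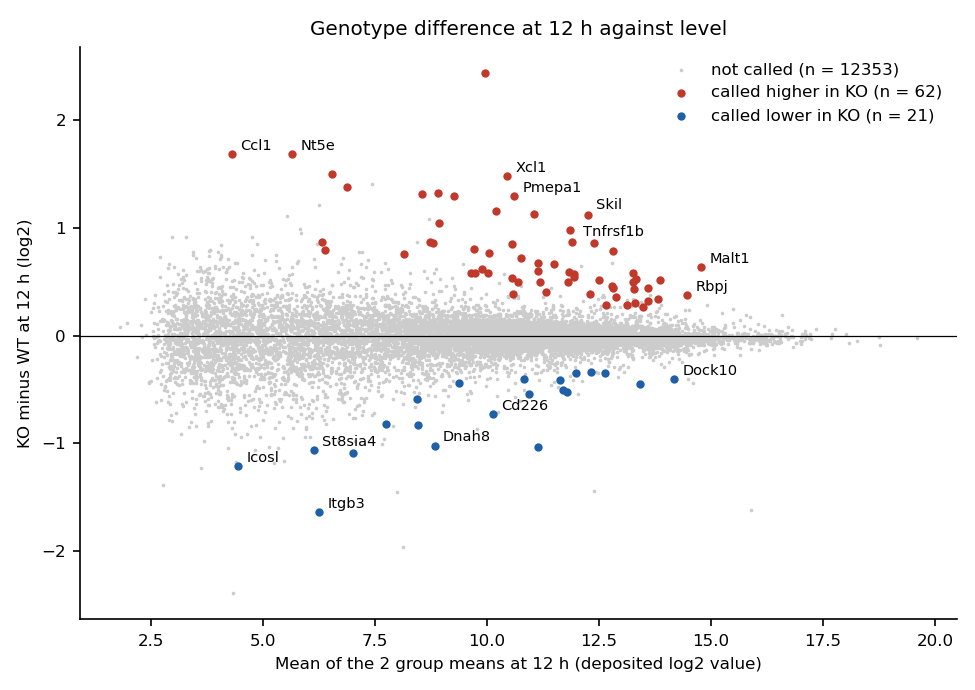
Each point is 1 of 12436 genes, with the mean of both group means at 12 h on the x axis (deposited log2 value) and the KO minus WT difference on the y axis (log2). The 62 genes called higher and 21 called lower had a median level of 11.3, against 10.2 for all genes tested, and many large differences at low levels were not called.

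All 83 called genes had KO and WT values that did not overlap, against 12.8% of all genes tested, made up of 5.37% higher and 7.41% lower in KO. The calls rest on the same values, so the lack of overlap in a called gene describes it and adds no support. The called rises had a median difference of 0.61 and the called falls of -0.54, while the median over all genes tested was -0.01. Of the calls 14 rose and 6 fell at least 2-fold. Among genes not called, 4 were higher and 15 lower by that much. An unadjusted p under 0.05 was reached by 792 genes.

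Among genes that TGF-β and SMAD proteins are known to regulate, 9 of 24 tested rose and 0 fell, while 0.499% of all genes rose. The list was chosen with earlier results of these data known, so this contrast is no independent test. The median difference of the 24 was 0.29. Skil was at 11.59, 11.73 and 11.77 in WT and at 12.69, 12.93 and 12.83 in KO. Pmepa1, a membrane protein induced by TGF-β that restrains SMAD signalling, was at 9.94, 9.95 and 9.96 in WT and at 11.28, 11.08 and 11.38 in KO. Every KO library of both genes stood well above every WT library, and the WT libraries of Pmepa1 were nearly level. The differences were 1.12 ± 0.09 for Skil and 1.30 ± 0.07 for Pmepa1 (SE from limma, 3 libraries a group; adjusted p = 1.63e-05 and 6.10e-08).

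Receptor-regulated Smad3 was at 11.16, 11.18 and 11.10 in WT and at 11.76, 11.74 and 11.95 in KO, a rise of 0.67 ± 0.06 or 1.59-fold. Id2, an inhibitor of helix-loop-helix factors, was at 10.23, 10.01 and 10.17 in WT and at 11.06, 10.76 and 11.12 in KO. In both genes the groups were apart by more than the spread within either. Ccr8, the receptor of the chemokine CCL1, was at 9.19, 9.32 and 9.40 in WT and at 9.94, 10.09 and 10.32 in KO. Nt5e, the ectoenzyme CD73 that makes adenosine, was at 4.73, 5.0 and 4.68 in WT and at 5.71, 6.84 and 6.93 in KO. KO replicate 1 of Nt5e was lower than the other KO libraries but above all WT libraries. The 2 CAGAC matches printed above belong to Ccr8 and Nt5e, while Id2 and Smad3 rose with 0 in their windows.

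The other 3 target genes called were smaller or less stable. Bhlhe40, a helix-loop-helix repressor, rose from a mean of 13.43 ± 0.04 to 13.75 ± 0.02 (SD, n = 3). Ldlrad4, which encodes an inhibitor that competes for binding of receptor-regulated SMADs, rose by 0.87 ± 0.19, and Klf10, a zinc finger factor first described as TGF-β inducible, by 0.76 ± 0.16 (limma adjusted p = 0.0433 and 0.0459). The calls of Ldlrad4 and Klf10 ended under 14 and 13 of 21 alternatives, with adjusted p up to 0.533 and 0.354. Smad7, the inhibitory SMAD and a classical target, was at 9.42, 9.33 and 9.50 in WT and at 9.97, 9.76 and 9.85 in KO. Its groups did not overlap, and its difference of 0.44 ± 0.12 was not called (adjusted p = 0.136). Id3, which like Id2 encodes an inhibitor of helix-loop-helix factors, had a difference of opposite sign, -0.42 ± 0.12 (adjusted p = 0.197, and 0.0418 with the replicate block). Skil, Pmepa1, Smad3, Id2 and Ccr8 were called without the replicate 2 libraries (adjusted p = 0.00117, 1.72e-05, 0.00352, 0.00111 and 0.0357), while Nt5e was not (0.168).

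The machinery of the pathway moved little outside these genes. Of all genes tested 0.499% rose and 0.169% fell. Of 19 ligands, receptors and processing enzymes 1 rose and 0 fell, with a median difference of 0.10. It was Furin, the protease that cleaves the TGF-β precursor, at 13.13, 12.90 and 13.14 in WT and 13.62, 13.44 and 13.68 in KO. The difference of Furin was 0.53 ± 0.09 (limma adjusted p = 0.00946), and 5 of 21 alternatives ended the call. Fes, a tyrosine kinase gene next to Furin on chromosome 7 (80377756 to 80387946, and 80388585 to 80405436 for Furin), rose by 0.80 ± 0.17, a call that ended under 14 of 21. The type II BMP receptor Bmpr2 was at 8.60, 8.39 and 8.50 in WT and at 8.96, 8.83 and 9.21 in KO and was not called (0.50 ± 0.14, adjusted p = 0.201). Of 19 SMAD proteins, corepressors and ubiquitin ligases the 2 that rose were Smad3 and Skil, and the median was 0.03. Ski was at 12.04, 12.11 and 12.09 in WT and at 12.11, 12.16 and 12.13 in KO, so that the groups overlapped (0.05 ± 0.06, adjusted p = 1.00).

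**Figure D2:**
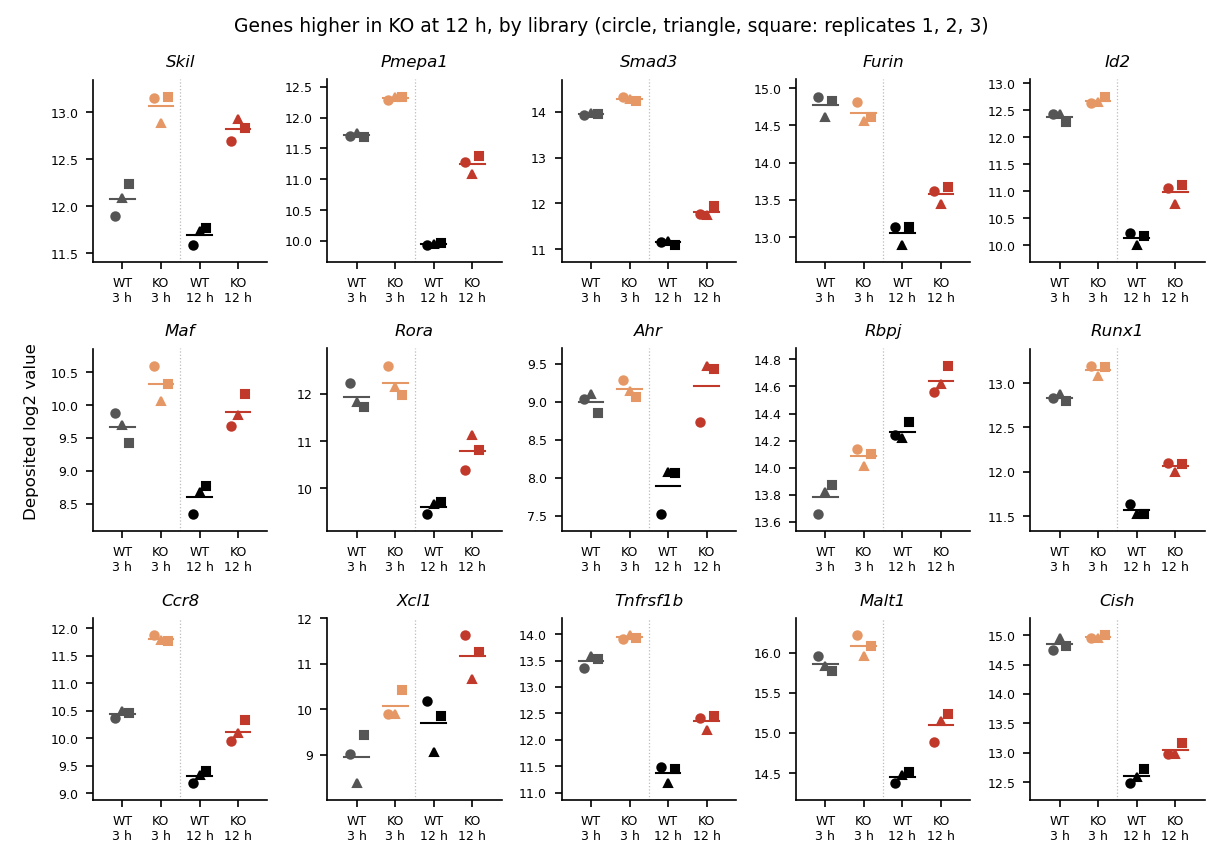
Deposited log2 value (y axis) of 15 genes called higher in KO at 12 h, with 1 panel a gene and the 4 groups on the x axis; circles, triangles and squares are replicates 1, 2 and 3 and lines are group means. In each panel the 3 KO libraries at 12 h stand above the 3 WT libraries, while at 3 h the genotypes overlap for Furin, Rora, Ahr and Cish.

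Among the transcription factors that build the TH17 programme, 7 of 18 rose and 0 fell, while 0.499% of all genes rose. The median difference of the 18 was 0.18, and this list too was chosen with earlier results known. Maf, a bZIP factor, was at 8.35, 8.68 and 8.77 in WT and at 9.68, 9.85 and 10.17 in KO. Rora, a retinoic acid receptor-related orphan receptor, was at 9.47, 9.67 and 9.72 in WT and at 10.40, 11.13 and 10.82 in KO. For both genes the lowest KO library lay well above the highest WT library. Ahr, the aryl hydrocarbon receptor, was at 7.53, 8.08 and 8.07 in WT and at 8.74, 9.47 and 9.43 in KO. In each genotype replicate 1 of Ahr was the low library, and the groups did not overlap.

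Runx1, a runt-domain factor of T cells, was at 11.64, 11.53 and 11.53 in WT and at 12.10, 12.00 and 12.09 in KO. Its rise of 0.50 ± 0.06, or 1.41-fold, was small and regular over the libraries (limma adjusted p = 0.000291), and no alternative ended the call. Ikzf3, which encodes Aiolos, a zinc finger factor that represses Il2, rose by 0.46 ± 0.07 (adjusted p = 0.00641). Rbpj, the DNA-binding partner of Notch, was at 14.24, 14.22 and 14.34 in WT and at 14.56, 14.62 and 14.75 in KO. Its call ended under 6 of 21 alternatives. Maf and Runx1 were called without the replicate 2 libraries (adjusted p = 0.0288 and 0.0221), and Rora, Ahr and Rbpj were not (0.123, 0.0805 and 0.263).

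Of 11 cytokine and receptor genes of TH17 cells that were tested 1 rose and 0 fell, beside 0.499% and 0.169% of all genes. The median difference of the 11 was 0.20, with 7 positive. With the replicate block 2 were higher, the second being Il6ra, the IL-6 receptor alpha chain (0.35 ± 0.10, limma adjusted p = 0.233, and 0.0249 with the block). The called gene was Tnfrsf1b, the TNF receptor TNFR2, at 11.48, 11.19 and 11.45 in WT and at 12.41, 12.18 and 12.46 in KO. Every KO library was higher, by 0.98 ± 0.09 or 1.97-fold (limma adjusted p = 2.13e-05), under all 21 alternatives. Il17a was below the filter, at 0.98 in 5 of the libraries and 0.99 in the other, and Il22, Il23r and Ccl20 were below it as well. Il17f was at 2.25, 2.23 and 2.54 in WT and at 3.39, 2.91 and 2.90 in KO. This is close to the floor of the values, and the difference was not called (0.73 ± 0.23, adjusted p = 0.259).

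Cytokine signalling genes gave 2 rises among 28 genes of IL-6, JAK and STAT signalling and its feedback, with a median of 0.03. Of all genes tested 0.499% rose. Gadd45g, a stress-response gene, was at 6.26, 5.77 and 6.5 in WT and at 7.41, 7.47 and 7.78 in KO. Cish, a feedback inhibitor of STAT5 signalling, was at 12.49, 12.58 and 12.73 in WT and at 12.98, 12.98 and 13.17 in KO. The groups did not overlap for either gene. The window of Cish holds the 2 STAT-type matches printed above, and the window of Gadd45g holds 0. Socs3, a feedback inhibitor of IL-6 signalling, had a difference of -0.12, and Stat3 of 0.16 (limma adjusted p = 1.00 and 0.804). Il2rb, the shared chain of the IL-2 and IL-15 receptors, was at 12.16, 12.49 and 12.70 in WT and at 12.88, 13.08 and 13.42 in KO and was not called (0.68 ± 0.17, adjusted p = 0.110), but it was called with the replicate block (0.000352).

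Other rises of receptors and ligands were spread over families. Xcl1, a chemokine gene, was at 10.18, 9.06 and 9.86 in WT and at 11.63, 10.67 and 11.25 in KO. Replicate 2 was the lowest library of Xcl1 in both genotypes, and the rise was 1.48 ± 0.29 (limma adjusted p = 0.0252). Xcl1 is made by CD8 T and NK cells as well, and the 14 markers of those cells, which include it, summed to 10.62 to 11.14 in WT and 11.33 to 11.99 in KO. Xcl1 was the highest of the 14 in every KO library, so this sum follows Xcl1 and says little about the other markers. Of the 14, 8 were tested, with 4 differences positive and 4 negative, and Xcl1 was the 1 called, beside 0.667% of all genes. Klrd1 had means of 2.49 in WT and 3.42 in KO and Cd8a of 4.42 and 4.95, while Eomes had 7.09 and 6.48. None of them was called (limma adjusted p = 0.644, 1.00 and 0.703). Klra1 was listed at 0, Ncr1 was at -0.71 to -0.51, and Cd8b1 was at 8.97 to 9.10 in WT and 8.63 to 8.92 in KO. In these bulk libraries more cells of a type and more RNA per cell cannot be told apart, and the part of other cells in the rise of Xcl1 was not tested. Ccl1, the ligand of CCR8, was at 3.86, 3.34 and 3.15 in WT and at 4.73, 4.93 and 5.77 in KO, a low-level gene whose call ended under 7 of 20 alternatives. Pdcd1, the receptor PD-1, rose from a mean of 13.38 to 13.82 and Lta, lymphotoxin alpha, from 12.24 to 12.75.

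Signalling and adaptor genes also rose. Rgs3, which limits signalling of G protein-coupled receptors, was at 10.37, 10.50 and 10.61 in WT and at 11.72, 11.45 and 11.70 in KO (1.13 ± 0.12; limma adjusted p = 0.000119). It was the 1 of 19 feedback phosphatase, Sprouty and Rgs genes to pass the test, while 0.499% of all genes rose. Of these 19 genes 15 had a positive difference, with a median of 0.16, among them Rgs10 just outside the threshold (0.37 ± 0.08, adjusted p = 0.0527). Mical1, an oxidoreductase that acts on actin, was at 8.14, 8.16 and 8.39 in WT and at 9.43, 9.44 and 9.82 in KO. Tbc1d4, a Rab GTPase-activating protein, was at 8.47, 8.33 and 8.41 in WT and at 9.27, 9.51 and 9.56 in KO, and its call ended under 8 of 21 alternatives. Both genes had every KO library above every WT library. Irf8, an interferon regulatory factor, rose from 11.56, 12.02 and 12.24 to 12.65, 12.82 and 12.95, the 1 call among 39 interferon response genes, whose median was -0.06. Egln3, an oxygen-sensing prolyl hydroxylase, rose by 0.86 ± 0.16, the 1 call among 28 glycolysis and hypoxia genes, whose median was -0.02.

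Genes given above such as Bhlhe40, Ldlrad4, Klf10, Fes, Ikzf3, Il6ra, Socs3 and Stat3 lie outside the rule for named genes. The following genes other than Rnf149 and Mgat5 also lie outside it and were chosen after their values were seen. Elk3, an ETS factor, was at 11.42, 11.27 and 11.68 in WT and at 12.40, 12.29 and 12.31 in KO (0.87 ± 0.10, limma adjusted p = 0.000338). Malt1, the protease and scaffold that links the T cell receptor to NF-κB, was at 14.38, 14.47 and 14.51 in WT and at 14.89, 15.15 and 15.24 in KO. Both genes were high throughout and their groups did not overlap. None of 13 NF-κB subunit and inhibitor genes was called. Of the 13, 2 were lower without overlap, beside 7.41% of all genes tested. Among regulators of chromatin and transcription, Kdm6b, a histone H3 lysine demethylase, rose by 0.52 ± 0.08, Kdm1a, another histone demethylase, by 0.36 ± 0.05, and the retinoic acid receptor Rara by 0.60 ± 0.10 (adjusted p = 0.00661, 0.00264 and 0.00734). Rnf149 and Lrig1 rose by 0.68 ± 0.07 and 0.58 ± 0.08 and, like Elk3, kept their calls under all 21 alternatives. Further rises of 0.5 or more included Phlda1, Axl, Cpd, Stx11, Cyth4, Tdrkh, Arntl, Plp2, Pdgfb, Bin1 and Epb41l2. Smaller ones were in Rnf19a, Mif4gd, Unkl, Ext1, Prkch, Ppp1r16b, Tes and Rassf5, down to 0.27 ± 0.05 for Rassf5. Mgat5, a glycosyltransferase that branches N-glycans, rose by 0.62 ± 0.13.

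Itgb3, the integrin beta 3 chain, was at 7.17, 6.62 and 7.43 in WT and at 5.55, 5.15 and 5.59 in KO, a difference of -1.64 ± 0.26 (limma adjusted p = 0.00505). It was the 1 of 12 integrin genes called, while 0.499% of all genes rose and 0.169% fell. Itgb3 was also called without the replicate 2 libraries (adjusted p = 0.0288). Icosl, the ligand of the costimulator ICOS, was at 5.16, 4.82 and 5.15 in WT and at 3.70, 4.01 and 3.77 in KO. Cd226, a costimulatory receptor, was at 10.50, 10.68 and 10.32 in WT and at 9.73, 9.89 and 9.69 in KO. In all 3 genes every KO library was lower. The calls of Icosl and Cd226 (limma adjusted p = 0.0275 and 0.0105) ended under 9 of 20 and 5 of 21 alternatives. Neither Icosl nor Cd226 was called without the replicate 2 libraries (adjusted p = 0.116 and 0.149). Together with the rise of Pdcd1 these make 1 rise and 2 falls, Icosl and Cd226, among 26 costimulatory and inhibitory receptors and ligands. Il15ra, the IL-15 receptor alpha chain, was between 10.98 and 11.09 in WT and at 10.68, 10.58 and 10.60 in KO, the 1 call among 21 cytokine receptor genes.

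St8sia4, a polysialyltransferase, was at 6.77, 6.56 and 6.64 in WT and at 5.20, 5.47 and 6.13 in KO, and its call ended under 14 of 21 alternatives. Dnah8, an axonemal dynein, was at 9.74, 9.02 and 9.25 in WT and at 8.01, 8.24 and 8.71 in KO. Syne2, a protein of the nuclear envelope, was at 8.53, 7.87 and 8.07 in WT and at 7.18, 7.35 and 7.49 in KO. In Dnah8 and Syne2 WT replicate 1 was the high library and KO replicate 1 the low one. Gimap7, a lymphocyte GTPase, was at 8.93, 9.11 and 8.61 in WT and at 7.81, 8.07 and 8.27 in KO. It was the 1 call among 8 Gimap genes, while 0.169% of all genes fell. Serpinb6b, a serine protease inhibitor, fell by 0.54 ± 0.11, Cobll1 by 0.59 ± 0.13, Snx9 by 0.50 ± 0.11, Camk1d by 0.44 ± 0.08 and Ndrg1 by 0.41 ± 0.08. Dock10, a guanine nucleotide exchange factor, Jade2, Lbr and Selenow, which lie outside the rule, fell by 0.40 ± 0.08, 0.35 ± 0.07, 0.35 ± 0.07 and 0.34 ± 0.06.

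Ms4a4b and Ms4a6b, membrane proteins of one family on chromosome 19 (11443553 to 11467055 and 11516512 to 11531256), fell together. Ms4a4b was at 12.12, 12.09 and 11.92 in WT and at 11.53, 11.52 and 11.52 in KO, and Ms4a6b at 13.66, 13.67 and 13.56 in WT and at 13.10, 13.17 and 13.26 in KO. The groups did not overlap in either gene, and whether members of the family share reads was not tested. Markers of B cells and MHC class II stood lower in KO as well. Their 16 genes summed to 10.11 to 10.45 in WT and 9.71 to 10.05 in KO, with 15 of 16 differences negative, a median of -0.24 and 0 called. Without WT replicate 1 that median was -0.06, with 12 negative. Cd79b, a chain of the B cell receptor complex, was at 5.10 to 5.42 in WT and 4.42 to 4.79 in KO. The part of such cells in the falls was not tested. The count of falls moved with single libraries: it was 5 without WT replicate 1, 6 and 8 without KO replicates 1 and 2, 10 without WT replicate 3, 14 without WT replicate 2 and 23 without KO replicate 3, all at 12 h, and reached 30 without WT replicate 1 at 3 h.

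**Figure D3:**
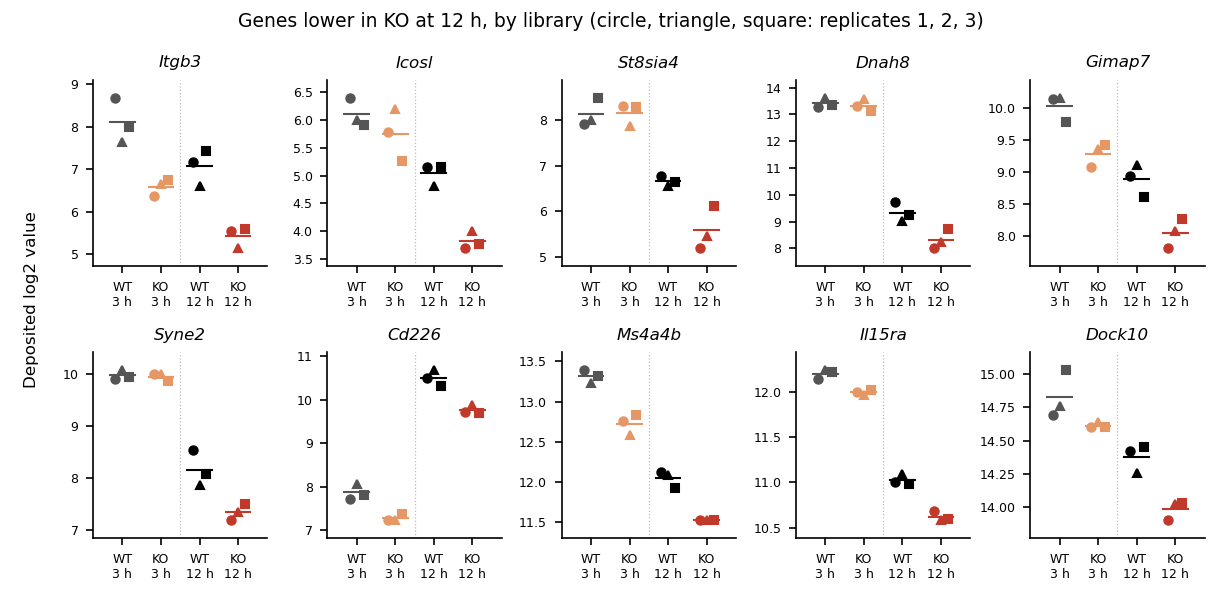
Deposited log2 value (y axis) of 10 genes called lower in KO at 12 h, with 1 panel a gene and the 4 groups on the x axis; circles, triangles and squares are replicates 1, 2 and 3 and lines are group means. At 12 h the KO libraries lie below the WT libraries in every panel, and at 3 h the genotypes overlap for St8sia4, Dnah8, Syne2 and Icosl.

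In several groups of genes most differences had 1 sign with 0 members called. Of 40 DNA replication and S phase genes 38 had a negative difference, with a median of -0.15 beside -0.01 over all genes, and 53.2% of all genes were negative. The origin factors Cdc6 and Orc1 had differences of -0.63 ± 0.27 and -0.39 ± 0.22 (limma adjusted p = 0.696 and 0.949). Of 36 genes of mitosis 26 were negative, with a median of -0.10. Of 21 TH1 genes 18 were negative, with a median of -0.22, among them Gzmb, granzyme B (-0.84 ± 0.23, adjusted p = 0.167), which was called with the replicate block (0.00559). The 11 heat shock genes were all negative, with a median of -0.09, and 10 of 11 were with quantile normalization. Of 25 cholesterol synthesis genes 21 were positive, with a median of 0.06, but without WT replicate 1 there were 13 positive. S1pr1, the receptor that lets T cells leave lymph nodes, was at 9.49, 8.19 and 8.45 in WT and at 7.14, 7.03 and 7.61 in KO. Its difference of -1.45 ± 0.42 was not called (adjusted p = 0.201).

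**Figure D4:**
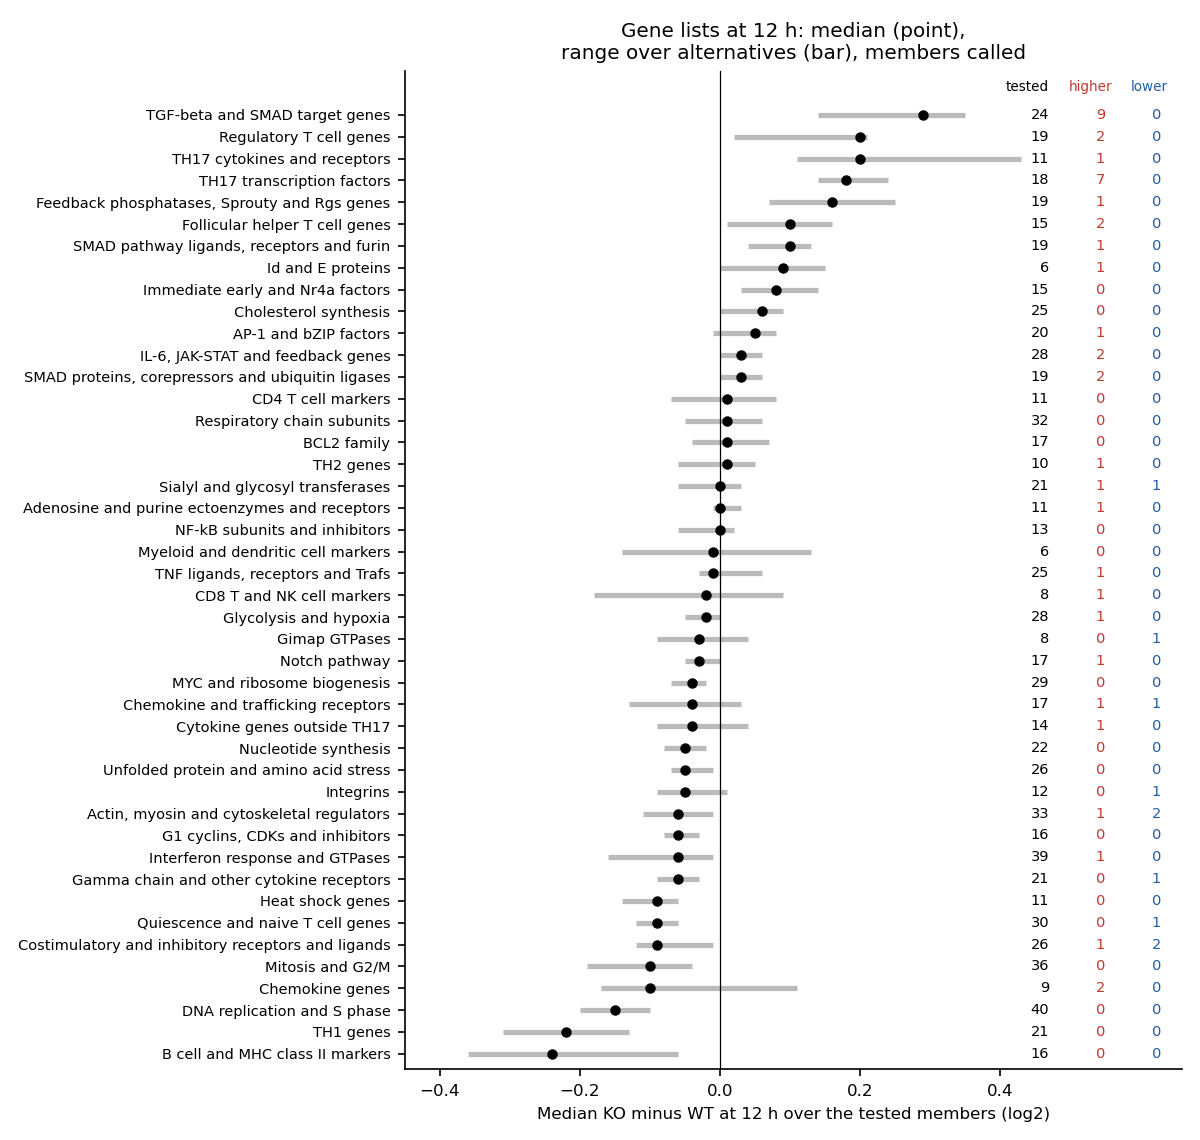
For each gene list with at least 5 tested members, the point is the median KO minus WT difference at 12 h (x axis, log2) and the bar its range over the alternatives; columns at the right give the members tested, called higher and called lower. The 24 TGF-β and SMAD target genes had a median of 0.29 and 9 calls, and the median of the B cell markers went from -0.24 to -0.06 without WT replicate 1.

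The 12 h differences were set against those at 3 h, which come from other libraries but from the same fit. Both share 1 estimate of the spread per gene, so a gene with a small spread is more readily called at both times. Replicate 2 had the same sex-linked pattern at both times, so animals may be shared as well. At 3 h 130 genes were called, 1.05% of those tested, with 37 higher (0.298%) and 93 lower (0.748%). Of the 83 genes called at 12 h, 25 were called at 3 h, all in the same direction, 18 higher and 7 lower. These are 30.1% of the 83, beside the 1.05% of all genes, a contrast between calls that are not independent. The sign was shared by 78 of the 83 and by 56.7% of all genes. The difference was larger at 12 h for 75 of the 83, a count that the choice of genes at 12 h favours. The difference between the times was called by limma for 0 genes, with a smallest adjusted p of 0.0552 and 497 genes at an unadjusted p under 0.05. With the replicate block 3 were called, and without WT replicate 2 at 3 h 28.

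Some calls at 12 h are given here with their differences at both times. In the main fit 0 genes were called for the difference between the times. Skil had like differences at both times, 0.99 at 3 h and 1.12 at 12 h, while its level in WT was 12.07 at 3 h and 11.69 at 12 h. Ccr8 had 1.37 at 3 h and 0.81 at 12 h, and was 1 of the few calls with a smaller difference at 12 h. Its difference between the times was not called (limma adjusted p = 0.421). Pmepa1 had 0.60 and 1.30, with an adjusted p of 0.0552 for the difference between the times. Itgb3, Ccl1 and Ms4a4b differed by about as much at 3 h (-1.52, 1.72 and -0.59) as at 12 h. Gadd45g, Ahr, Tbc1d4, Furin, Dnah8 and St8sia4 had differences of 0.05, 0.17, -0.13, -0.11, -0.08 and 0.02 at 3 h and were called at 12 h. Their differences between the times had adjusted p of 0.304, 0.369, 0.369, 0.303, 0.677 and 0.734, so none was shown to differ between the times. Cd226 had a mean of 7.87 in WT at 3 h and of 10.50 at 12 h, and it was called lower in KO at both times.

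**Figure D5:**
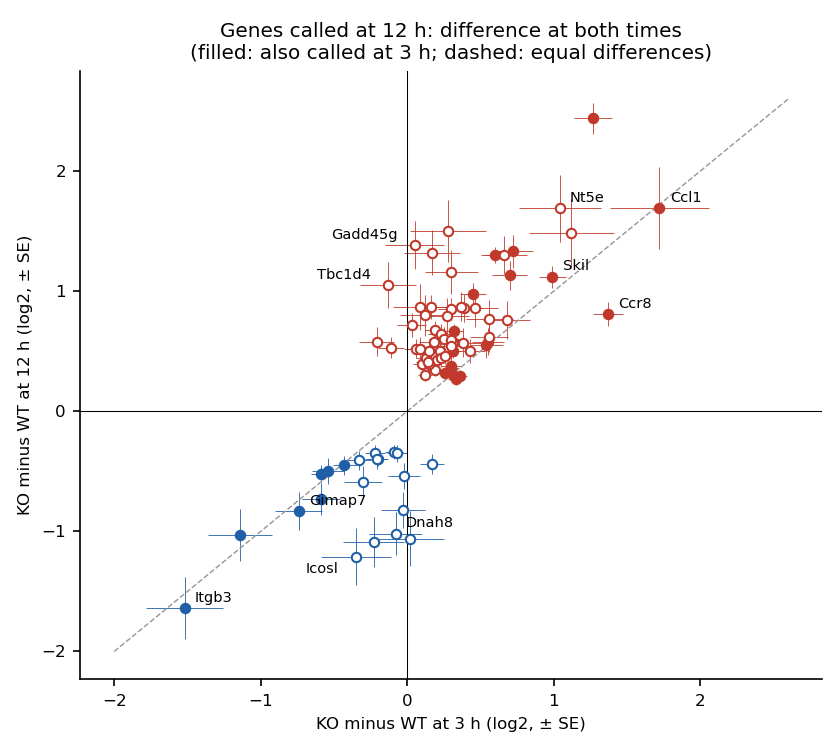
Each point is 1 of the 83 genes called at 12 h, with the KO minus WT difference at 3 h on the x axis and at 12 h on the y axis (log2, bars are ± SE); red points rose and blue points fell at 12 h, and filled points, 25 in all, were called at 3 h too. Most points lie farther from 0 at 12 h than at 3 h, and Ccr8 lies on the other side of the dashed line of equal differences.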

How the data were processed

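RNA of 12 libraries was sequenced, 3 for each genotype at 3 h and 12 h. The deposited table holds log2 values that the authors normalized. The submitters' processing notes name Trim Galore, STAR, featureCounts and DESeq2 with mm10, and versions and options are not given in the sources consulted. The values have the form of a regularised log: 5663 rows were at 0 in all libraries and 0 rows in only some. Such values understate differences of low genes, read depth is unknown, and no count test was run. All columns matched 1 sample title each, and 0 were left unmapped.

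Group means over all 12 libraries were fitted with limma 3.58.1 in R 4.3.3 (lmFit, eBayes with trend), on genes with a mean of at least 3. Tests were two-sided, with Benjamini-Hochberg adjustment over 12436 genes and a call at 0.05. Errors of differences are SE, and folds are 2 to the power of the log2 difference. On simulated data 49% of genes changed by 0.5 and 79% of genes changed by 1 (log2) were recovered. Same-numbered libraries at 12 h had correlated deviations (0.174, 0.5 and 0.186), and the number was taken to pair them. The highest correlation with a WT library of another number was 0.084, -0.251 and 0.15, so the pairing was clear for replicate 2 only. With the number as a block no named call was lost. Named genes were Skil, Ski and Smad4, the 15 largest rises and falls among calls without overlap whose higher mean was at least 5, the 10 smallest adjusted p, up to 4 members of each gene list, and called members of some families. A few genes within the rule are not reported here but are part of every count. Genes, lists and tests were chosen with earlier results of these data known. Summed marker levels are log2 of the sum of the unlogged values. Gene coordinates are from GENCODE vM21 (GRCm38) and promoter windows from RefSeq (GRCm38.p6). In 21 alternatives 1 choice at a time was changed, and 2 more were added after seeing the data.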

Additional observations from a re-analysis of the deposited data

How the results depend on the processing

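The count of 83 calls at 12 h, 62 higher and 21 lower, depended on the settings, while the sign of all 83 was kept in every alternative that tested them. The groups of these 83 genes did not overlap, so only quantile normalization and median centring could have reversed a sign. No trend in the prior gave 39 calls, 30 higher and 9 lower, and no filter on low values gave 40, 33 and 7. Array weights gave 167, 98 and 69, so that the share of rises among calls was 58.7% in place of 74.7%. A fit on the compared groups alone gave 42 lower, and the replicate block 36 lower. Without replicate 2 of every group the counts were 22, 19 and 3. Leaving out 1 library at a time gave 49 to 102 calls, 42 to 72 higher and 5 to 30 lower. As alternatives chosen after seeing the data, the replicate block on the compared groups alone gave 128 calls with 85 higher and 43 lower, and the replicate block without replicate 2 gave 26, 24 and 2. For the difference between the times, 0 genes were called in the main design, 3 with the replicate block, 3 with no filter, 2 with quantile normalization, and 0 to 28 when 1 library was left out. Of 80 calls with a proper gene name 14 held under all 21 alternatives set out at first, among them Mical1, Maf, Pmepa1, Rgs3, Skil, Tnfrsf1b, Elk3, Id2, Ccr8, Rnf149, Smad3, Lrig1 and Runx1. The other 66 were lost under at least 1, and 0 reversed. The causes were not tested. No depth can be read from these values, so which differences lay below the detection of the libraries cannot be stated.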

Other observations

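Some genes differed at least 2-fold between the genotypes at 12 h without passing the test, 4 higher and 15 lower in KO, and the ones given here were chosen after their values were seen. Kifc3, a kinesin gene, had means of 8.16 in WT and 9.24 in KO (1.08 ± 0.24 SE, limma adjusted p = 0.0549), and Lilrb4a, an inhibitory receptor gene, 8.15 and 7.14 (-1.01 ± 0.22, 0.0527). Ddr1, a collagen receptor kinase, had 6.72 and 8.13 (1.41 ± 0.44, 0.281), and Jaml, an adhesion molecule, 5.63 and 6.84 (1.21 ± 0.29, 0.0922). The 3 libraries of each genotype did not overlap in these 4 genes. With the replicate block Kifc3 and Lilrb4a were called (adjusted p = 0.000352 and 0.0126). Among the lower differences, those of Rn45s (-1.62), Lars2 (-1.44) and Rmrp (-2.39) came with WT replicate 1, which held all 3 far above the other libraries.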
